A study of Rattus norvegicus with 16 samples.

Results

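The kidneys of diabetic rats given sinomenine (SIN) at 40 mg/kg were compared with the kidneys of normal rats, to see which transcripts still differed from normal under the higher dose. The comparison took 8 of the 16 libraries of the series, 4 rats in each group, chosen from the group names in the sample labels and from no measured value. All rats were male inbred Sprague Dawley rats, 6 to 8 weeks old at the start. The SIN (40 mg/kg) rats, called the treated rats below, had received streptozotocin, a toxin of the insulin-producing beta cell, at 45 mg/kg after an overnight fast. They were kept only if blood glucose was over 16.7 mmol/L 1 week later. They were fed a high-glucose and high-fat diet and given SIN daily for 8 weeks. The normal rats had received citrate buffer, ate a normal diet and are tagged sham. The diabetic nephropathy (DN) group and the SIN (20 mg/kg) group had the same toxin and diet, without SIN and with the lower dose, and are used here only for values set side by side. The groups differed in toxin, diet and drug at once, so these cannot be told apart.

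Diabetic nephropathy is the injury of glomeruli and tubules that follows long high blood glucose. The proximal tubule takes back filtered glucose, amino acids and phosphate, the thick ascending limb secretes uromodulin, and podocytes hold the glomerular filter. Sinomenine is an alkaloid from the plant Sinomenium acutum that is known as an anti-inflammatory drug. Kidney cells also carry a circadian clock, in which the activators BMAL1, CLOCK and NPAS2 switch on the Per, Cry, Nr1d, Dbp and Tef genes in one phase of the day, and the Per, Cry and Nr1d proteins then repress the activators.

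RNA was measured by poly(A) sequencing, and each value below is in CPM, the estimated counts on a gene per 1000000 counts of the library, scaled by TMM normalization. The 8 libraries held 19863228 to 22287517 estimated counts. Defining kidney transcripts were present in every library, with 3 proximal tubule markers summing to 5628 to 9128 CPM in the SIN (40 mg/kg) rats and 5832 to 8776 CPM in the normal rats. Markers of other cell types moved with the groups in places. In sum, 2 thick ascending limb markers were lower in every treated rat (2134 to 2725 CPM) than in any normal rat (3402 to 4394 CPM). So were 2 intercalated cell markers (132 to 149.7 CPM against 184 to 216 CPM) and the 2 podocyte markers. In each of these pairs only 1 marker passed an adjusted p under 0.05 in the test described below. The thick ascending limb sum was lower through Umod, while Slc12a1 overlapped between the groups. The 2 collecting duct markers were higher in sum in every treated rat (659 to 1279 CPM against 177 to 634 CPM). Aqp2 made up most of this sum, and neither marker passed that test. The 4 erythroid markers summed to 263 to 583 CPM against 406 to 926 CPM, with overlap. The 5 urothelial markers summed to 53.7 CPM in normal replicate 1 and 3.90 to 9.13 CPM in the other normal rats, and the 4 adipocyte markers to 122.7 CPM in SIN (40 mg/kg) replicate 1 and 63.2 to 64.2 CPM in the other rats of that group. The defining liver markers stayed between 0 and 2.15 CPM in sum. What part these had in the results was not tested. Library serial numbers ran in sequence within each group, so any effect of library preparation and the group cannot be told apart. In these bulk samples, fewer cells of a type and less RNA per cell cannot be told apart either.

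Under the higher dose the kidney transcriptome still lay apart from normal. Of 15735 genes tested, 388 were called, that is, they passed an adjusted p under 0.05 in edgeR's quasi-likelihood test with Benjamini-Hochberg adjustment and an absolute log2 fold change of at least 1. These were 2.47% of the genes tested. More genes fell than rose: 283 were called lower (1.8%) and 105 higher (0.667%) in the SIN (40 mg/kg) rats. At an adjusted p under 0.05 and any fold, 940 genes passed (5.97%), 359 of them higher (2.28%) and 581 lower (3.69%). The median log2 fold change of all genes tested was 0.005. In 368 of the 388 called genes the 4 and 4 rats did not overlap, against 13.9% of all genes tested. On the first principal component, with 33% of the variance, the SIN (40 mg/kg) rats lay between 22.8 and 40.7 and the normal rats between -39.6 and -24.8. Of the called genes, 103 were assembled loci with no gene symbol and are not named here. The counts depended on single rats: the genes at adjusted p under 0.05 numbered 462 without SIN (40 mg/kg) replicate 2, 533 without replicate 3 of that group, and 574, 626 and 490 without normal replicates 1, 3 and 4. The test was repeated under up to 16 alternative settings, 8 of which left out 1 rat. A gene that had an adjusted p of 0.05 or more under some of them is given below as lost under that many, with the highest adjusted p, or with the setting where there was 1.

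**Figure D1:**
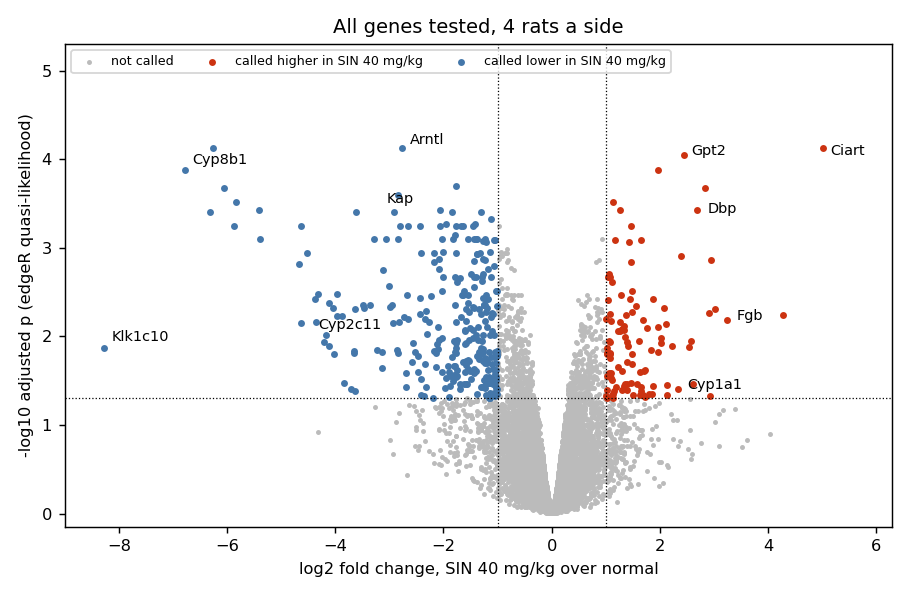
Each point is 1 of the 15735 genes tested, placed by its log2 fold change over normal on the x axis and -log10 of the adjusted p on the y axis. Dotted lines mark an adjusted p of 0.05 and a log2 fold change of -1 and 1. The 283 genes called lower (blue) reach further from 0 than the 105 called higher (red), where Ciart stands at 5.01.

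Most genes of the circadian clock differed from normal. Of 10 listed genes that peak with Dbp, 6 were called higher (0.667% of all genes were), 9 passed the adjusted p, all higher, and all 10 had a log2 fold change above 0, with a median of 1.36 against 0.005 for all genes tested. Of 5 genes listed with Bmal1, 3 were called lower (1.8% of all genes were) and Cry1, a repressor, was higher (0.84, adjusted p = 0.00681). Ciart, a repressor of the CLOCK and BMAL1 pair, measured 6.28, 9.6, 8.4 and 8.8 CPM in the treated rats and 0.329, 0.0975, 0.262 and 0.309 CPM in the normal rats. The lowest treated rat was thus far above the highest normal rat, and Ciart had the largest log2 fold change among called genes with a symbol (5.01 ± 0.31, SE, adjusted p = 7.42e-05). Dbp, a transcription factor of the clock's output, measured 178, 222, 214 and 149 CPM in the treated rats and 20.4, 26.7, 28.1 and 43.9 CPM in the normal rats (log2 fold change 2.68 ± 0.23 (SE), adjusted p = 0.000372). Tef, its relative, measured 240.1, 235, 242 and 224 CPM in the treated rats and 88.3, 108, 84.9 and 114 CPM in the normal rats (log2 fold change 1.26 ± 0.11 (SE), adjusted p = 0.000372). None of these groups overlapped.

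The period genes, which encode repressors of the clock, were higher too. Per3 measured 36.9, 35.02, 33.4 and 31.5 CPM in the treated rats and 7.79, 7.71, 8.43 and 11.1 CPM in the normal rats (log2 fold change 1.97 ± 0.14 (SE), adjusted p = 0.000132). Per2 measured 77.03, 53.7, 54.4 and 48.03 CPM in the treated rats and 20.8, 21.9, 21.3 and 21.2 CPM in the normal rats (log2 fold change 1.46 ± 0.14 (SE), adjusted p = 0.000576). Normal rats were tightly grouped for Per2, and the lowest treated rat was above 2 times the highest normal value. Per1 was higher by less (log2 fold change 0.84 ± 0.19 (SE), adjusted p = 0.0302, lost under 5 of 16, up to 0.0902). Bhlhe41, another repressor, was called higher (log2 fold change 1.96 ± 0.38 (SE), adjusted p = 0.0148, lost without SIN (40 mg/kg) replicate 2), and Nr1d2 (0.90, adjusted p = 0.0205, lost under 3 of 16, up to 0.0603) and Hlf (0.47, adjusted p = 0.0253, lost under 4 of 16, up to 0.0781) passed without reaching the fold. Nr1d1 missed the threshold at an adjusted p of 0.0501, with a log2 fold change of 0.72.

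The activators moved the other way. Arntl, the rat gene of BMAL1, measured 5.18, 4.92, 4.85 and 7.51 CPM in the treated rats and 40.02, 43.9, 37.03 and 32.5 CPM in the normal rats (log2 fold change -2.76 ± 0.16 (SE), adjusted p = 7.42e-05). Npas2, a partner of BMAL1, measured 1.62, 3.6, 2.1 and 3.16 CPM in the treated rats and 19.3, 19.7, 15.4 and 12.2 CPM in the normal rats (log2 fold change -2.66 ± 0.26 (SE), adjusted p = 0.000576). Nfil3, a repressor of Dbp targets, measured 2.93, 3.0, 3.45 and 3.73 CPM in the treated rats and 9.34, 11.9, 8.51 and 5.96 CPM in the normal rats (log2 fold change -1.44 ± 0.22 (SE), adjusted p = 0.0048). In all 3 the highest treated rat lay below the lowest normal rat. Clock itself had a log2 fold change of -0.69 ± 0.18 (SE) and did not pass (adjusted p = 0.051), and its groups overlapped. Outside the lists, and picked once the values were known, Cry2 (1.14, adjusted p = 0.000304), Usp2, a ubiquitin protease (1.65, adjusted p = 0.000812), and Wee1, a cell cycle kinase (1.04, adjusted p = 0.00212), were also called higher. The clock's transcripts change with the time of day, and the hour at which tissue was taken is not given in the sources used here, so group and hour of collection cannot be told apart.

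**Figure D2:**
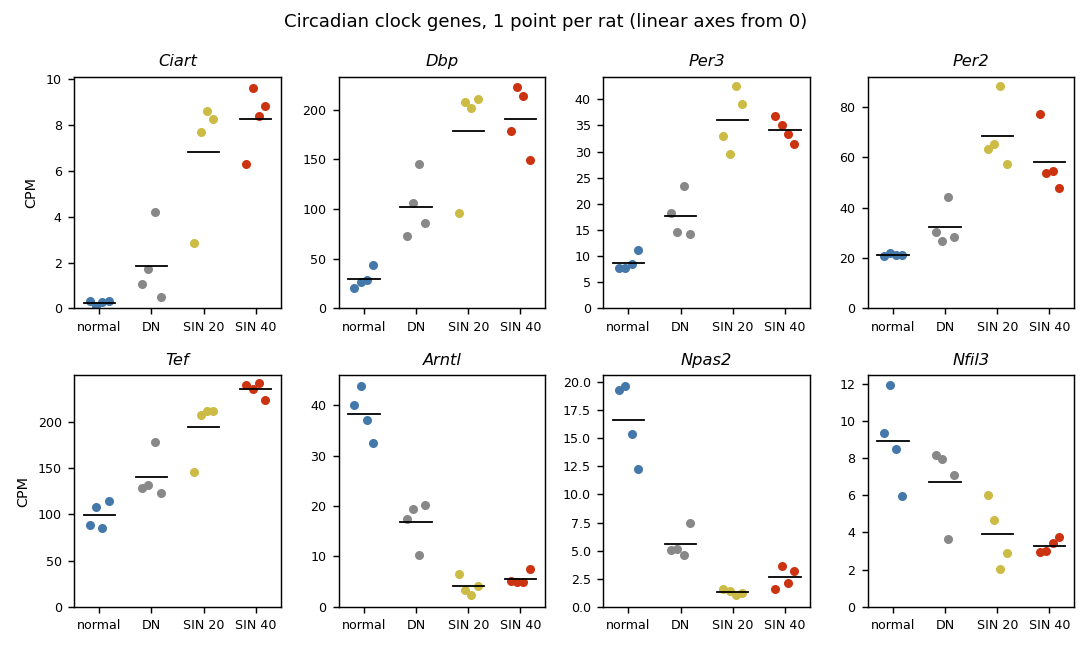
CPM of 8 clock genes in every rat (points) with the group mean (line), for the normal rats, the DN rats and the rats on the lower and the higher dose of SIN. On the higher dose Ciart, Dbp, Per3, Per2 and Tef sit above every normal rat, and Arntl, Npas2 and Nfil3 below every normal rat, with the DN mean in between in each panel.

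The promoters of the listed clock genes, from both the Dbp and the Bmal1 list, were searched for the letters of 3 clock motifs on both strands. The window ran from 250 bases before to 50 bases after the gene's start. The motifs were the E-box CACGTG, which the activators bind, the D-box TTANGTAA (with C or T at the open base), which DBP and TEF bind, and TAGGTCA, the core that NR1D and ROR proteins bind. Promoters were found for 13 of the 15 listed clock genes. The E-box letters stood in 3 of the 13, the D-box letters in 1 and the NR1D core in 1, against 6.42%, 1.01% and 2.63% of 33469 rat promoters. A match is a description and not a binding site, and no match says only that these letters are not in this window. For each motif 1 promoter is shown, from RefSeq on build GRCr8, 5′ to 3′ along the gene, with the motif in capitals. The Ciart window is chr2:186112197-186112496 (minus strand), the Per2 window chr9:99496944-99497243 (minus strand) and the Arntl (Bmal1) window chr1:176766078-176766377 (plus strand).
Ciart, 3 E-boxes: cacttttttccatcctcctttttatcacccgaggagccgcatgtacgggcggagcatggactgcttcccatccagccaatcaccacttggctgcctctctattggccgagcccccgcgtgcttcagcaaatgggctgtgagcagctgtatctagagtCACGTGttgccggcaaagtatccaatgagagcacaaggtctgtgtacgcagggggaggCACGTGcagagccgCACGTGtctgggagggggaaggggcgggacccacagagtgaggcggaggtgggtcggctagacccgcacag
Per2, 1 D-box: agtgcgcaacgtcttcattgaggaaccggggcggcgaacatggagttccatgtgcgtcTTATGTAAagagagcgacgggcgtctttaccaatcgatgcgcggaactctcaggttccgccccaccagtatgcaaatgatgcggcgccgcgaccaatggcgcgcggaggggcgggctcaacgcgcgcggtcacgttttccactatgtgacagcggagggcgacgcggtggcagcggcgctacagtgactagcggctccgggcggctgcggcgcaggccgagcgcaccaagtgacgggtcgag
Arntl, 1 NR1D core: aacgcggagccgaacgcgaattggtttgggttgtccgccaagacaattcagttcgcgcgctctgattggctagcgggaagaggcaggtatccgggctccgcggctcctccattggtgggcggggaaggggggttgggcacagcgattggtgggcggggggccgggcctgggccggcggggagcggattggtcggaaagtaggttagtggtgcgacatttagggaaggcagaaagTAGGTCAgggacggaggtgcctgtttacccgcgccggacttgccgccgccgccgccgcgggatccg

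Among the genes that fell furthest were several whose transcripts were nearly absent under SIN (40 mg/kg). Anxa13, an annexin of epithelial membranes, measured 0.314, 0.281, 0.84 and 0.287 CPM in the treated rats and 29.6, 24.4, 47.2 and 33.8 CPM in the normal rats (log2 fold change -6.26 ± 0.36 (SE), adjusted p = 7.42e-05). Cyp8b1, the sterol 12-alpha-hydroxylase of bile acid synthesis, measured 0.0524, 0, 0.0467 and 0.0478 CPM in the treated rats and 3.24, 6.39, 3.93 and 4.99 CPM in the normal rats. Its 4 treated libraries held 3 counts in all against 403 in the normal libraries, a ratio of 126 with an exact 95% counting interval of 42.9 to 615. Serpinb12, a serine protease inhibitor, held 6 counts against 456, and Ccn6, a matricellular protein, 2 against 153, so these folds rest on a handful of treated reads and the intervals cover counting error only. Low levels were not particular to the treated rats. The DN means were 0.802 CPM for Anxa13, 0.225 CPM for Cyp8b1, 0.509 CPM for Serpinb12 and 0.102 CPM for Ccn6. Klk1c10, a kallikrein, was at 0 in all 4 treated rats and at 0.704, 3.66, 0.655 and 2.25 CPM in the normal rats, which makes it at least 12.5-fold lower against a floor of 3 counts per library. It was not called in the fit of all 16 rats (adjusted p = 0.087), and 2 of the 4 DN rats were also at 0, though the DN mean was 1.85 CPM. Klk1c10 belongs to a family of near-identical genes between which reads can be split, so its level is uncertain.

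Cftr and Cyp2c11 were also among the 15 lowest. Cftr, the chloride channel of epithelia, measured 0.0524, 0.281, 0.56 and 0.43 CPM in the treated rats and 5.44, 3.02, 13.2 and 5.43 CPM in the normal rats (log2 fold change -4.31 ± 0.59 (SE), adjusted p = 0.00331). Cyp2c11, the male-specific cytochrome P450 of rats, measured 2.98, 2.29, 2.05 and 0.526 CPM in the treated rats and 32.2, 7.07, 34.5 and 24.5 CPM in the normal rats, and normal replicate 2 was well below the other normal rats (log2 fold change -3.64 ± 0.55 (SE), adjusted p = 0.0049). In the DN rats the means were 0.325 CPM for Cftr and 2.96 CPM for Cyp2c11. Slpi, a leukocyte protease inhibitor, fell (log2 fold change -3.23 ± 0.61 (SE), adjusted p = 0.0142), but lost its call without SIN (40 mg/kg) replicate 2 or replicate 3, at an adjusted p of up to 0.0527. Acot5, Zfp648, Cpne4, Tex101, Timm8a2 and Tcerg1l belonged to the same 15, with log2 fold changes from -5.40 (Acot5) to -3.49 (Tcerg1l). Acot5 and Cyp2c11 have close paralogs and their split of reads is uncertain.

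**Figure D3:**
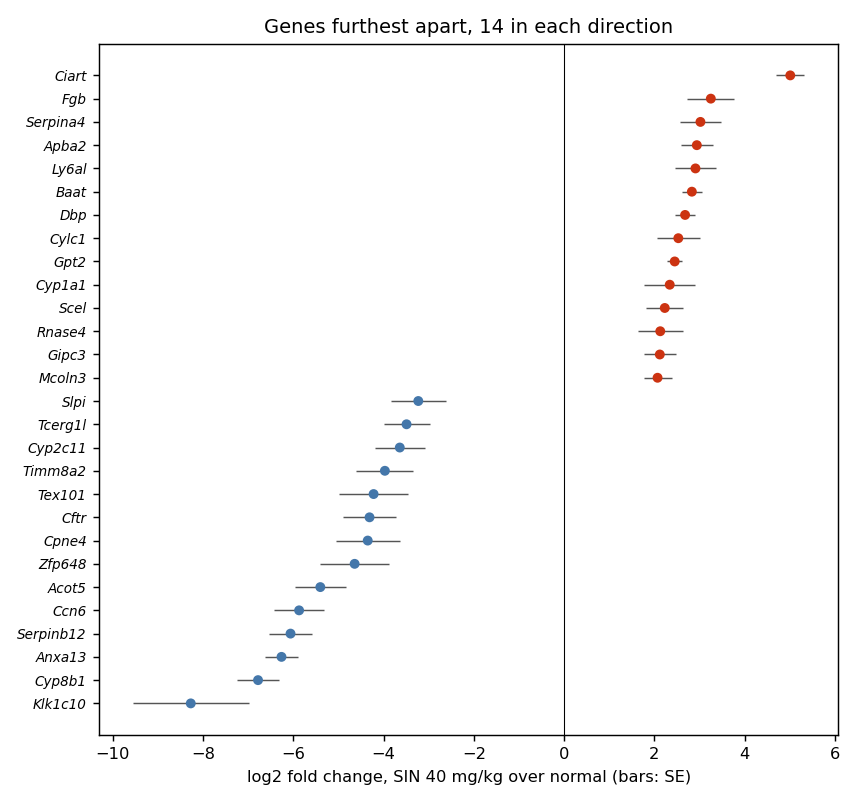
Log2 fold change (point) with its SE (bar) of 14 of the 15 called genes furthest below and 14 of the 15 furthest above normal, among those with a symbol, a mean of at least 1 CPM in the higher group and no overlap between the groups. The lower set reaches from Slpi at -3.23 to Klk1c10, whose fitted value depends on the prior count because it is at 0 in all treated rats, and the higher set from Mcoln3 at 2.07 to Ciart at 5.01.

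The 15 genes furthest above normal included enzymes and secreted proteins. Gpt2, the mitochondrial alanine aminotransferase, measured 44.1, 43.9, 38.5 and 35.5 CPM in the treated rats and 9.38, 8.1, 5.98 and 6.27 CPM in the normal rats (log2 fold change 2.45 ± 0.16 (SE), adjusted p = 9.09e-05). Baat, which joins amino acids to bile acids, measured 34.4, 27.2, 22.03 and 18.4 CPM in the treated rats and 3.94, 3.71, 3.89 and 2.83 CPM in the normal rats (log2 fold change 2.83 ± 0.22 (SE), adjusted p = 0.00021). Fgb, the fibrinogen beta chain, measured 7.02, 13.5, 3.27 and 4.4 CPM in the treated rats and 0.985, 1.07, 0.262 and 0.662 CPM in the normal rats (log2 fold change 3.25 ± 0.52 (SE), adjusted p = 0.00656), while the difference of Fga, the alpha chain, did not pass (0.69, adjusted p = 0.0573). Serpina4, the kallistatin gene, rose as well (log2 fold change 3.02 ± 0.46 (SE), adjusted p = 0.0049). In Gpt2, Baat, Fgb and Serpina4 the lowest treated rat was above the highest normal rat. The bile salt export pump Abcb11, picked once its values were known, was called higher (1.75, adjusted p = 0.00799).

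The same set held genes with 1 treated rat apart from its group. Mcoln3, a lysosomal cation channel, measured 42.9, 102, 104 and 108 CPM in the treated rats and 13.4, 27.6, 17.6 and 26.8 CPM in the normal rats, with SIN (40 mg/kg) replicate 1 far below its group (log2 fold change 2.07 ± 0.31 (SE), adjusted p = 0.0048). Ly6al had the same low replicate 1, at 11.8, 49.5, 52.6 and 66.6 CPM in the treated rats (log2 fold change 2.91 ± 0.45 (SE), adjusted p = 0.00549). Rnase4, a secreted ribonuclease whose symbol stands on 2 rows of the deposited table, measured 20.6, 6.46, 5.93 and 6.12 CPM in the treated rats and 3.66, 2.19, 2.18 and 0.972 CPM in the normal rats (log2 fold change 2.13 ± 0.50 (SE), adjusted p = 0.0357), and its call was lost under 5 of the 16 alternatives. These values are of 1 of the 2 rows, and the other is not reported here. Cyp1a1, the P450 induced through the aryl hydrocarbon receptor, measured 4.4, 3.18, 13.2 and 4.64 CPM in the treated rats and 2.63, 1.12, 0.655 and 0.618 CPM in the normal rats (log2 fold change 2.34 ± 0.57 (SE), adjusted p = 0.0396), with replicate 3 high, and lost its call under 6 of the 16, at an adjusted p of up to 0.36. Apba2, Cylc1, Scel and Gipc3 were also in the set, at log2 fold changes of 2.12 to 2.94. Cylc1, a gene of the sperm head, measured 4.56, 3.42, 3.17 and 4.21 CPM in the treated rats and 1.13, 0.146, 0.961 and 0.398 CPM in the normal rats, and was not called in the fit of all 16 rats (adjusted p = 0.166).

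In the proximal tubule none of the 3 defining markers passed the test, but several transporters did. Slc2a2, the basolateral glucose carrier GLUT2, measured 329, 276, 176 and 174 CPM in the treated rats and 108, 101, 83.7 and 76.7 CPM in the normal rats (log2 fold change 1.38 ± 0.22 (SE), adjusted p = 0.00575). Slc5a10, a mannose and fructose carrier, measured 231, 201, 259 and 189.5 CPM in the treated rats and 108, 153, 80.7 and 109 CPM in the normal rats (log2 fold change 0.97 ± 0.18 (SE), adjusted p = 0.0116), just under the fold for a call. Slc5a9 was lower (-0.57, adjusted p = 0.00629). Slc5a2, the SGLT2 carrier that takes back most filtered glucose, measured 534, 391, 332 and 306 CPM in the treated rats and 437, 361, 299 and 300.4 CPM in the normal rats, and the difference of these overlapping groups did not pass (0.17, adjusted p = 0.636). Of 9 glucose and fructose transporters tested, 2 were higher and 1 lower at an adjusted p under 0.05, with a median of 0.17. The share of all genes tested that passed was 5.97%. Pck1 and G6pc, the enzymes of glucose release, did not pass (-0.17, adjusted p = 0.727 and -0.24, adjusted p = 0.578), while Got1 was higher (0.48, adjusted p = 0.0252, lost under 7 of 16, up to 0.127).

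Carriers of peptides and amino acids moved in both directions, with 2 of 12 higher and 2 lower at an adjusted p under 0.05. For all genes tested these shares were 2.28% and 3.69%. Slc15a1, the peptide carrier of the early tubule, was called higher (log2 fold change 1.08 ± 0.21 (SE), adjusted p = 0.0155, lost without normal replicate 4), and Slc15a2, the peptide carrier of the late tubule, was lower (log2 fold change -0.85 ± 0.14 (SE), adjusted p = 0.00845). Slc6a19, for neutral amino acids, was higher (0.70, adjusted p = 0.0457, lost under 8 of 16, up to 0.129) and Slc3a1, the cystine carrier subunit, lower (-0.54, adjusted p = 0.0183, lost under 3 of 16, up to 0.066). Among 14 drug transporters 2 were called lower and 6 passed in all, against 1.8% and 5.97% of all genes tested. Slco1a1, an organic anion carrier, measured 9.11, 22.9, 29.4 and 58.3 CPM in the treated rats and 198, 206, 267 and 259 CPM in the normal rats (log2 fold change -2.95 ± 0.44 (SE), adjusted p = 0.00447). Slc22a2, the organic cation carrier OCT2, measured 266, 262, 338 and 269.9 CPM in the treated rats and 637, 786, 544 and 677 CPM in the normal rats (log2 fold change -1.21 ± 0.13 (SE), adjusted p = 0.000866). Slc22a7 (-0.85, adjusted p = 0.0278, lost under 7 of 16, up to 0.0856) and the carnitine carrier Slc22a5 (-0.66, adjusted p = 0.0313, lost under 7 of 16, up to 0.1) were lower, and the efflux pumps Abcc2 (0.79, adjusted p = 0.0282, lost under 5 of 16, up to 0.0918) and Abcc4 (0.49, adjusted p = 0.00386) higher.

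Other tubule transcripts fell steeply. The naming rule did not take these genes, which were picked once the values were known. Kap, the kidney androgen-regulated protein, measured 156, 297, 251 and 364 CPM in the treated rats and 2092, 1436, 2200 and 2373 CPM in the normal rats (log2 fold change -2.92 ± 0.26 (SE), adjusted p = 0.000391). Slc7a13, an amino acid carrier of the late proximal tubule, measured 514, 625, 926 and 970.1 CPM in the treated rats and 1864, 2106, 2111 and 2192 CPM in the normal rats (log2 fold change -1.44 ± 0.19 (SE), adjusted p = 0.00276). In both genes even the highest treated rat was below the lowest normal rat. Slc16a1, a lactate carrier, measured 66.98, 45.8, 24.3 and 56.5 CPM in the treated rats and 252, 208, 176 and 158 CPM in the normal rats (log2 fold change -2.03 ± 0.28 (SE), adjusted p = 0.00308). Prlr, the prolactin receptor, measured 28.9, 24.8, 21.0 and 32.5 CPM in the treated rats and 108, 73.7, 106 and 126 CPM in the normal rats (log2 fold change -1.95 ± 0.18 (SE), adjusted p = 0.000537). Rgn, a calcium-binding protein also called SMP30, fell from a normal range of 156 to 422 CPM to 34.3 to 88.2 CPM (log2 fold change -2.34 ± 0.38 (SE), adjusted p = 0.00634). Dio1, which activates thyroid hormone (-1.67, adjusted p = 0.000576), Gc, the vitamin D binding protein (-1.76, adjusted p = 0.00696), and Hnmt, which inactivates histamine (-1.80, adjusted p = 0.0114), were called lower too. Stra6, a receptor for retinol binding protein, was called higher (log2 fold change 1.36 ± 0.24 (SE), adjusted p = 0.0101). Rbp4, the retinol binding protein, had overlapping groups (1.73, adjusted p = 0.049) and lost its call under 7 of 16 alternatives.

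**Figure D4:**
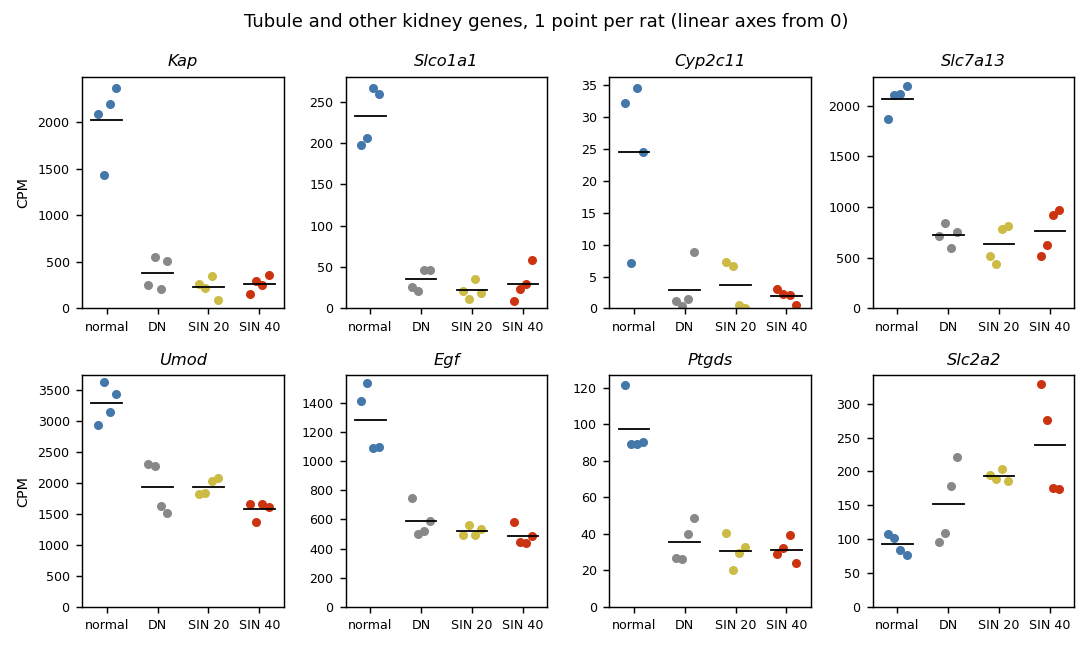
CPM of 8 kidney genes in every rat (points) with the group mean (line) on linear axes from 0. Kap, Slco1a1, Cyp2c11, Slc7a13, Umod, Egf and Ptgds are lower in all 4 SIN 40 mg/kg rats than in any normal rat, and Slc2a2 is higher.

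In the distal nephron, uromodulin and the epidermal growth factor precursor were lower. Umod, the main protein of the thick ascending limb, measured 1655, 1365, 1661 and 1611 CPM in the treated rats and 2943, 3624, 3142 and 3445 CPM in the normal rats (log2 fold change -1.06 ± 0.11 (SE), adjusted p = 0.000812). Egf, made in the thick limb and distal tubule, measured 579, 444, 437 and 484 CPM in the treated rats and 1416, 1534, 1092 and 1098 CPM in the normal rats (log2 fold change -1.39 ± 0.15 (SE), adjusted p = 0.000787). All treated rats were below all normal rats for both. Slc12a1, the sodium carrier of the same thick limb, measured 479, 783, 1030 and 1114 CPM in the treated rats and 459, 704, 908 and 949 CPM in the normal rats, with the groups overlapping (0.18, adjusted p = 0.756). Of 19 distal sodium and potassium genes, 1 was called (Umod) and 4 passed the adjusted p, against 2.47% and 5.97% of all genes tested. Kcnj10 was lower (-0.45, adjusted p = 0.0174, lost under 3 of 16, up to 0.196). Scnn1a, the sodium channel alpha subunit (0.69, adjusted p = 0.0442, lost under 6 of 16, up to 0.123), and the kinase Wnk4 (0.74, adjusted p = 0.015, lost without SIN (40 mg/kg) replicate 2) were higher. Aqp3, the water channel of the basolateral collecting duct, was called higher with overlapping groups (1.02, adjusted p = 0.0493, lost under 8 of 16, up to 0.135). Aqp2, its apical partner, measured 608, 976, 1236 and 736 CPM in the treated rats and 139.8, 594, 356 and 331 CPM in the normal rats, and missed the threshold (1.33, adjusted p = 0.0641). In acid-base transport, Slc26a4 (-0.65, adjusted p = 0.0325, lost under 6 of 16, up to 0.0927) and the proton pump subunit Atp6v1b1 (-0.54, adjusted p = 0.00852), both of intercalated cells, were lower, and the carbonic anhydrase Ca4 was higher (0.63, adjusted p = 0.00413).

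The calcium handling genes Slc8a1 and Calb1 of the distal tubule rose. Slc8a1, the sodium-calcium exchanger, measured 87.03, 94.9, 57.8 and 76.6 CPM in the treated rats and 38.5, 33.95, 39.95 and 33.97 CPM in the normal rats (log2 fold change 1.12 ± 0.15 (SE), adjusted p = 0.00246). Calb1, the calcium buffer calbindin, measured 323, 286, 181 and 389 CPM in the treated rats and 176, 129.6, 147 and 151 CPM in the normal rats (log2 fold change 0.97 ± 0.20 (SE), adjusted p = 0.0217, lost under 4 of 16, up to 0.0655). Cyp24a1, which inactivates vitamin D, was called higher (log2 fold change 1.22 ± 0.26 (SE), adjusted p = 0.0221), but SIN (40 mg/kg) replicate 1, at 114 CPM, lay within the normal range, and the call was lost under 5 of 16 alternatives. The calcium-sensing receptor Casr was lower (-0.61, adjusted p = 0.00634). Of 16 genes of phosphate, vitamin D and calcium, 4 were higher and 1 lower at an adjusted p under 0.05, against 2.28% and 3.69% of all genes tested. Slc34a1, the main phosphate carrier, did not pass (-0.02, adjusted p = 0.964).

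In the glomerulus, Nphs1, which encodes nephrin of the slit diaphragm, measured 54.7, 47.3, 34.6 and 38.8 CPM in the treated rats and 66.3, 47.5, 51.6 and 45.3 CPM in the normal rats, with overlap and no call (-0.26, adjusted p = 0.388). Cdkn1c, a cell cycle inhibitor of podocytes, was called higher (log2 fold change 1.27 ± 0.22 (SE), adjusted p = 0.0086). The median over 13 podocyte genes was -0.26. In the matrix list 0 of 22 genes were called by edgeR's quasi-likelihood test, by DESeq2 or by edgeR's exact test, with 10 at an unadjusted p under 0.05. The 4 that passed at any fold were all lower (3.69% of all genes tested were) and all belong to the basement membrane: Nid1 (-0.97, adjusted p = 0.00447), Col4a3 (-0.79, adjusted p = 0.00958), Col4a4 (-0.68, adjusted p = 0.014) and Col4a1 (-0.52, adjusted p = 0.0175, lost under 3 of 16, up to 0.0606). Nid1, the nidogen that links laminin and collagen, measured 108, 114, 120 and 145 CPM in the treated rats and 184, 247, 239 and 287 CPM in the normal rats. The fibrillar and provisional matrix genes Col1a1 (0.25, adjusted p = 0.535), Col3a1 (-0.22, adjusted p = 0.603) and Fn1 (0.32, adjusted p = 0.354) did not pass. Of 15 genes of TGF-beta signalling, the feedback inhibitors Smad7 (-0.61, adjusted p = 0.0104) and Skil (-0.73, adjusted p = 0.0175, lost under 3 of 16, up to 0.0588) were lower and Tgfb1 did not pass (0.17, adjusted p = 0.52).

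Markers of tubular injury gave a mixed picture, with 2 of 14 higher and 3 lower at an adjusted p under 0.05. Among all genes tested, 2.28% were higher and 3.69% lower. Clu, the stress chaperone clusterin, measured 234, 305, 368 and 233 CPM in the treated rats and 152, 150.2, 133 and 99.5 CPM in the normal rats (log2 fold change 1.10 ± 0.18 (SE), adjusted p = 0.00665), and Krt8, a keratin that rises in stressed tubules, was higher (0.80, adjusted p = 0.0189, lost under 3 of 16, up to 0.0635). Sox9, a factor of tubule repair (-0.97, adjusted p = 0.0118), the adhesion molecule Vcam1 (-0.83, adjusted p = 0.00866) and ceruloplasmin Cp (-0.82, adjusted p = 0.0346, lost under 8 of 16, up to 0.109) were lower. The common injury markers differed widely between treated rats. Havcr1, which encodes KIM-1, measured 1.99, 2.86, 0.887 and 14.5 CPM in the treated rats and 0.845, 2.29, 0.393 and 0.751 CPM in the normal rats, with replicate 4 high (2.25, adjusted p = 0.145). Lcn2, which encodes NGAL, measured 1.99, 5.85, 24.5 and 13.6 CPM in the treated rats and 3.33, 3.27, 3.06 and 4.86 CPM in the normal rats (1.66, adjusted p = 0.129). Neither passed.

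In the inflammatory lists, of 7 to 21 genes each, 0 or 1 gene had an adjusted p under 0.05, which is near the 5.97% of all genes tested. The study chose core targets by network analysis, of which 9 were in the list used here and 7 could be tested. None of the 7 passed in edgeR's quasi-likelihood test, with 3 at an unadjusted p under 0.05. Mmp9 passed the threshold under 4 of the 16 alternatives, 2 of them DESeq2 and edgeR's exact test. The other 2 used the quasi-likelihood test, with the replicate number as a block (adjusted p = 0.0115) or without SIN (40 mg/kg) replicate 1 (adjusted p = 0.0283). Mmp9, a matrix protease, measured 2.98, 0.749, 0.84 and 1.34 CPM in the treated rats and 10.04, 3.81, 4.19 and 2.52 CPM in the normal rats (log2 fold change -1.79 ± 0.53 (SE), adjusted p = 0.0778). Il1b measured 0.471, 1.36, 0.747 and 1.1 CPM in the treated rats and 1.88, 1.95, 1.75 and 1.37 CPM in the normal rats, without overlap (log2 fold change -0.90 ± 0.34 (SE), adjusted p = 0.151). Il6 and Tnf had no count in any of the 8 rats. Stat3 (log2 fold change -0.09 ± 0.12 (SE), adjusted p = 0.697), Jak2 (log2 fold change -0.07 ± 0.14 (SE), adjusted p = 0.819), Il18 (log2 fold change -0.02 ± 0.31 (SE), adjusted p = 0.978) and Ptgs2 (log2 fold change -0.11 ± 0.55 (SE), adjusted p = 0.933) had overlapping groups, and Nfkb1 was 0.20 ± 0.08 (SE, adjusted p = 0.155). For Il6 and Tnf a count of 0 leaves up to 3 counts per library possible, so a difference was not detectable at this depth. Of 18 genes of the JAK, STAT and SOCS list only Il20ra, a receptor subunit, passed (0.99, adjusted p = 0.0451), and it lost this under 9 of 16 alternatives. Socs3 did not (-0.61, adjusted p = 0.0768). In the inflammasome and NF-kB list (12 tested, 3 at an unadjusted p under 0.05), the interferon-stimulated genes (21 and 1) and MHC class II (8 and 2), no gene passed by edgeR's quasi-likelihood test, DESeq2 or edgeR's exact test. Nlrp3, the inflammasome sensor, measured 1.78, 1.87, 1.49 and 1.63 CPM in the treated rats and 2.44, 2.24, 2.62 and 2.25 CPM in the normal rats (-0.49, adjusted p = 0.201). Of 13 leukocyte markers, the T cell gene Cd3e was called lower (log2 fold change -1.24 ± 0.30 (SE), adjusted p = 0.0386, lost under 8 of 16, up to 0.103), at a level of at most 1.24 CPM in the treated rats.

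Several genes of fat use were lower. In fatty acid oxidation and ketogenesis 5 of 19 genes were lower at an adjusted p under 0.05 and none was higher, with a median of -0.26. Over all genes tested, 3.69% were lower and 2.28% higher at this threshold. Angptl4, an inhibitor of lipoprotein lipase and a target of PPAR receptors, measured 5.5, 4.68, 4.62 and 7.37 CPM in the treated rats and 19.1, 21.9, 19.5 and 19.4 CPM in the normal rats (log2 fold change -1.84 ± 0.16 (SE), adjusted p = 0.000391). Pdk4, which turns tissue from glucose to fat, measured 13.8, 7.58, 10.5 and 11.96 CPM in the treated rats and 29.4, 18.7, 25.3 and 23.6 CPM in the normal rats (log2 fold change -1.14 ± 0.20 (SE), adjusted p = 0.00963). The thioesterase Acot1 (-0.89, adjusted p = 0.0049) and the droplet protein Plin2 (-0.80, adjusted p = 0.0189, lost under 3 of 16, up to 0.0637) were lower below the fold for a call, and Cpt1a did not pass (0.17, adjusted p = 0.282). Srebf1, the regulator of fatty acid synthesis, was the 1 gene of 20 called in the synthesis list (log2 fold change 1.08 ± 0.17 (SE), adjusted p = 0.00564), against 2.47% of all genes tested. In the renin-angiotensin list, the angiotensin receptor Agtr1a (-0.53, adjusted p = 0.0229) and angiotensinogen, Agt (-0.49, adjusted p = 0.0461), were lower below the fold for a call. They did not pass under 4 and 9 of the 16 alternatives, among them leaving out 1 rat, at adjusted p values of up to 0.0714 for Agtr1a and 0.149 for Agt. Cyp2e1, an ethanol-oxidizing P450, measured 1423, 1235, 1245 and 926 CPM in the treated rats and 841, 577, 472 and 489 CPM in the normal rats (log2 fold change 1.03 ± 0.20 (SE), adjusted p = 0.0155, lost without normal replicate 4). Nqo1 was higher (0.89, adjusted p = 0.0104) and Gclc, the glutathione-synthesis enzyme, lower (-0.67, adjusted p = 0.00871). The abundant omega-hydroxylase Cyp4a2 was lower (-0.66, adjusted p = 0.0127), and Ephx1 higher (0.77, adjusted p = 0.0238, lost under 4 of 16, up to 0.0762).

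Among growth-related genes, cyclin D1 and some IGF binding proteins differed. Ccnd1, the cyclin of entry into the cell cycle, measured 355, 404, 351 and 289.9 CPM in the treated rats and 119, 151, 98.6 and 152 CPM in the normal rats (log2 fold change 1.43 ± 0.16 (SE), adjusted p = 0.000866). It was the 1 gene of 16 called in the cell cycle list, against 2.47% of all genes tested. Igfbp1, an insulin-repressed binding protein, was called higher (log2 fold change 1.48 ± 0.31 (SE), adjusted p = 0.0206, lost under 5 of 16, up to 0.0749), while Igfbp4 was called lower (log2 fold change -1.25 ± 0.28 (SE), adjusted p = 0.0308, lost under 6 of 16, up to 0.0803) and Igfbp3 was lower below the fold (-0.93, adjusted p = 0.0392, lost under 6 of 16, up to 0.113). Igf1 did not pass (-1.07, adjusted p = 0.117). Ptgds, a prostaglandin D synthase, measured 29.1, 31.98, 39.5 and 24.2 CPM in the treated rats and 122, 89.1, 89.3 and 90.2 CPM in the normal rats (log2 fold change -1.64 ± 0.16 (SE), adjusted p = 0.000576). Egr1, an immediate-early gene, was called lower (log2 fold change -2.69 ± 0.64 (SE), adjusted p = 0.0372), but its normal rats spread from 7.12 to 84.9 CPM, they overlapped the treated rats, and the call was lost under 7 of 16 alternatives. Of 83 cytosolic ribosomal protein genes 0 were called and 16 were higher at an adjusted p under 0.05, from 0.30 (Rpl36 and Rps27) to 0.52 (Rps19l2) on the log2 scale. Among all genes tested 2.28% were higher at that threshold. The median of the ribosomal list was 0.22. Over the alternatives its count of higher genes ran from 0 to 30. No gene passed among 81 nuclear oxidative phosphorylation genes (27 at an unadjusted p under 0.05, 11 by DESeq2 and 3 by edgeR's exact test) or 38 proteasome subunits (1, 0 and 0).

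**Figure D5:**
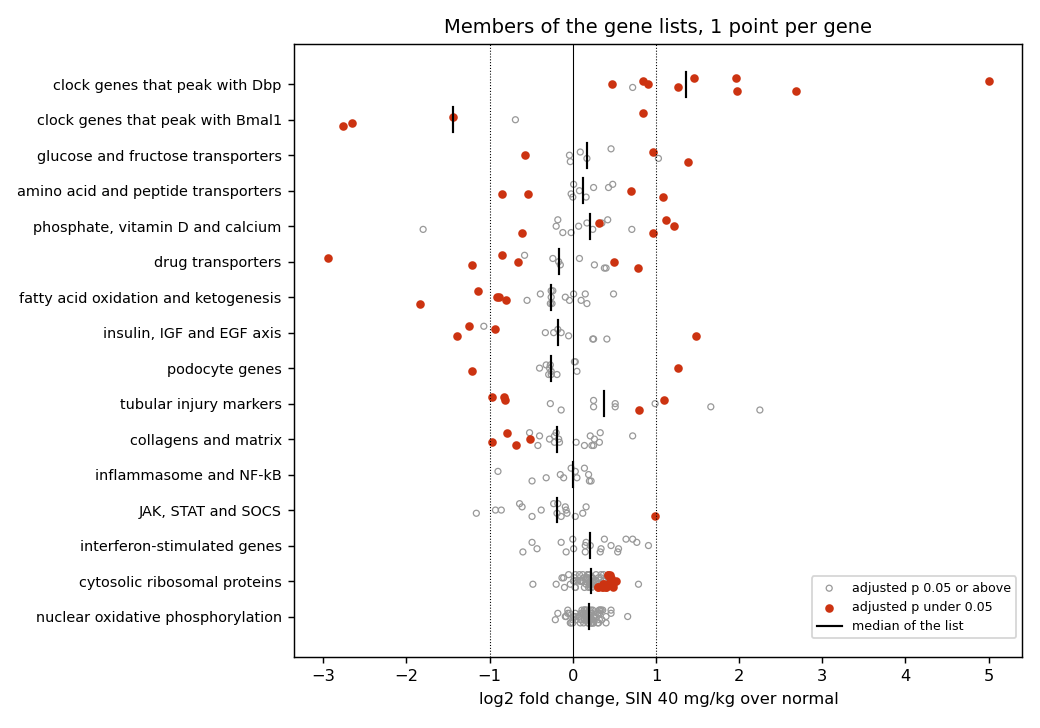
Log2 fold change over normal of each tested member of 16 gene lists (points, offset upwards or downwards only for visibility), with the list's median (black line). Filled points passed an adjusted p under 0.05. The Dbp list lies wholly above 0 and 4 of the 5 genes listed with Bmal1 below it, while the inflammasome and interferon lists hold no filled point.

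Set against the DN rats, which had the toxin and the diet but no SIN, the SIN (40 mg/kg) rats gave no call: 0 of 15530 genes (0%) by edgeR's quasi-likelihood test, with a smallest adjusted p of 0.14 and 2657 genes at an unadjusted p under 0.05. DESeq2 called 58 genes and edgeR's exact test 40. A p above the threshold does not show that the groups were alike. The clock genes Arntl, Dbp and Ciart, and Gpt2, are given side by side, and both comparisons with the normal rats share those 4 rats. Arntl measured 17.3, 19.5, 10.3 and 20.3 CPM in the DN rats. Its log2 fold change was -1.19, adjusted p = 0.00738 for DN over normal and -1.57 ± 0.24, adjusted p = 0.148 for SIN (40 mg/kg) over DN, and the latter passed in DESeq2 (adjusted p = 7.6e-07), in the exact test (4.42e-05), in the fit of all 16 rats (0.0412) and without DN replicate 3 (0.0413). Dbp measured 72.6, 106, 145 and 86.03 CPM in the DN rats (DN over normal 1.78, adjusted p = 0.00524, and SIN over DN 0.91 ± 0.21, adjusted p = 0.175). Ciart measured 1.06, 1.72, 4.21 and 0.481 CPM in the DN rats, below every SIN (40 mg/kg) rat (SIN over DN 2.16 ± 0.51, adjusted p = 0.179), and passed in DESeq2 (0.00346) and in the exact test (0.0159). Gpt2 measured 15.8, 17.7, 23.4 and 24.9 CPM in the DN rats (DN over normal 1.46, adjusted p = 0.00421, and SIN over DN 1.00 ± 0.15, adjusted p = 0.148), and the latter passed in DESeq2 (1.55e-05) and in the exact test (4.85e-05).

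For several genes that lay below normal in the treated rats, the DN rats were low as well. Kap measured 249.7, 552, 205 and 511 CPM in the DN rats (DN over normal -2.42, adjusted p = 0.0043, and SIN over DN -0.49 ± 0.35, adjusted p = 0.489). Anxa13 measured 1.11, 0.354, 0.498 and 1.25 CPM (SIN over DN -0.87 ± 0.54, adjusted p = 0.432). Slco1a1 measured 25.8, 21.5, 46.5 and 46.7 CPM (SIN over DN -0.21 ± 0.47, adjusted p = 0.851), Umod 2300, 2268, 1635 and 1523 CPM (SIN over DN -0.28 ± 0.16, adjusted p = 0.391) and Egf 749.8, 502, 521 and 592 CPM (SIN over DN -0.27 ± 0.15, adjusted p = 0.389). Col4a1, in contrast, was near normal in the DN rats at 371, 352, 285 and 317 CPM (DN over normal 0.13, adjusted p = 0.488, and SIN over DN -0.64 ± 0.11, adjusted p = 0.148). The basement membrane genes Nid1, Col4a3 and Col4a4 were low in the DN rats as well (DN over normal -0.89, -0.77 and -0.90, adjusted p = 0.00626, 0.00876 and 0.00497). Their SIN over DN values were -0.07 ± 0.12, -0.02 ± 0.18 and 0.24 ± 0.14 (adjusted p = 0.796, 0.97 and 0.398). At 20 mg/kg the mean of Dbp was 179 ± 55.6 CPM, of Arntl 4.08 ± 1.75 CPM and of Kap 229 ± 111 CPM (SD, n = 4), and Cyp1a1 stood at 707 CPM in SIN (20 mg/kg) replicate 2 alone.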

How the data were processed

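Kidney poly(A) RNA of 16 rats (4 groups of 4) was sequenced, and 8 rats were compared here. The authors deposited 1 table of estimated counts for 35849 genes and assembled loci, of which 74.3% of the values above 0 were whole to within 1e-06. Tools named in the submitters' processing notes are TopHat, Bowtie, RSEM and edgeR. The paper's methods give the rat build Rnor_6.0. The table also held 5 columns of no labelled sample, 4 of them libraries, and the authors' group means of the estimated counts, none of which were used.

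Estimated counts were rounded to whole numbers. Genes were filtered by filterByExpr over the 2 groups, scaled by TMM and tested with edgeR 4.0.16 (quasi-likelihood test, 2-sided, Benjamini-Hochberg adjustment over all genes), in R 4.3.3. A gene was called at an adjusted p under 0.05 and an absolute log2 fold change of at least 1, the rule given in the study's methods. An SE is the log2 fold change divided by the root of F. The script was tested on simulated data. DESeq2 1.42.0, edgeR's exact test and the other alternatives are given in the closing section. Labels name rats as separate samples but not litters or days, so p-values measure the spread between these rats. The libraries compared held 19863228 to 22287517 counts, and 3 counts were taken as the floor.

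Named genes were the 15 highest and 15 lowest called genes with a symbol, a mean of at least 1 CPM in the higher group and no overlap between groups. To these were added, in each of 53 gene lists, the genes that passed and up to 4 that did not, and the study's core targets. Genes, lists and rules were chosen with earlier results of these data known. Genes missing from the table were not analysed here, and some genes that the rule took are not reported here.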

Additional observations from a re-analysis of the deposited data

Results flagged for a closer look

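Among the named genes, 301 groups of 4 rats were examined for 1 rat far from the other 3 (Dixon's gap test at its 95% level), and 21 were marked, 6.98%, where chance marks about 1 in 20. The difference from the other rats was not explained further.

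SIN (40 mg/kg) replicate 1 was marked most often. It was low for Mcoln3 (42.9 CPM, the others 102 to 108), Cdkn1c (39.9 CPM, the others 65.9 to 68.7) and Cd3e (0.995 CPM, the others 1.21 to 1.24). It was high for Rnase4 (20.6 CPM, the others 5.93 to 6.46), Scel (2.93 CPM, the others 2.01 to 2.11), Il20ra (6.81 CPM, the others 3.78 to 4.26) and Kmo (359 CPM, the others 303 to 306).

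SIN (40 mg/kg) replicate 3 was high for Anxa13 (0.84 CPM, the others 0.281 to 0.314), Tex101 (0.7 CPM, the others 0.0937 to 0.157), Cyp1a1 (13.2 CPM, the others 3.18 to 4.64) and Slc22a2 (338 CPM, the others 262 to 269.9). Replicate 4 of that group was high for Arntl (7.51 CPM, the others 4.85 to 5.18) and Zfp648 (0.144 CPM, the others 0), and low for the ribosomal protein genes Rpl28 (262 CPM, the others 292 to 296), Rps18 (444 CPM, the others 492 to 495) and Rpl36 (150.3 CPM, the others 161 to 163). Replicate 2 was low for Umod (1365 CPM, the others 1611 to 1661) and Cyp8b1 (0 CPM, the others 0.0467 to 0.0524).

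In the normal group, replicate 2 was high for Tex101 (12.0 CPM, the others 2.18 to 3.45) and Angptl4 (21.9 CPM, the others 19.1 to 19.5), and replicate 1 for Ptgds (122 CPM, the others 89.1 to 90.2).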

How the results depend on the processing

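Of the 388 calls, all kept their direction under each alternative in which they were tested. Of them, 387 were called by DESeq2, 388 by edgeR's exact test, 384 with RLE scaling, 371 without a filter, 287 with at least 10 counts in every rat and 335 in the fit of all 16 rats. The number called lay within 1.5 times 388 under all 16 alternatives. Genes called higher numbered 169 by the exact test, and 65 to 132 with 1 rat left out (65, 69 and 68 without SIN40 replicate 2, SIN40 replicate 3 and normal replicate 4). Genes at adjusted p under 0.05 numbered 1761 by DESeq2, 1512 by the exact test, and 462 to 1016 with 1 rat left out. Against DN, where 0 were called, DESeq2 called 58, the exact test 40 and the fit of all 16 rats 2, and 0 to 3 were called with 1 rat left out. Of 144 named genes past the adjusted p, 80 passed under every alternative that gave a value, 64 did not, 33 of these only with 1 rat left out, and none reversed. Reversed signs were found only in core targets that had not passed, and only with 1 rat left out. Over all alternatives, the log2 fold change ran from -0.15 to 0.03 for Stat3 and from -0.16 to 0.00 for Jak2. It ran from -0.26 to 0.20 for Il18 and from -0.60 to 0.26 for Ptgs2. With the replicate block 450 genes were called, 143 higher and 307 lower, but the numbers do not pair the rats: the deviations of same-numbered rats correlated at 0.28, 0.06, -0.05 and 0.02. The cause of these differences was not tested. Fewer than about 3 reads per library cannot be told from 0.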
